A study of Homo sapiens and Mus musculus with 15 samples.

Results

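The CCN genes are a small family of secreted matricellular proteins, and the 5 members CCN1 to CCN5 were taken by symbol from each table of the series, as 5 of 61071 rows in the human table, 5 of 56832 in the mouse bulk table and 5 of 32285 genes in the single-cell matrices. All 5 were found in each. They were taken by name and not by a cut on a measured value, though earlier results of these data were known. The series asks how YAP, a transcriptional co-activator held in check by the LATS kinases of the Hippo pathway, bears on ageing of the retinal pigment epithelium (RPE), the pigmented cell layer under the photoreceptors. The human samples were ARPE-19 cells, an RPE cell line, in 3 groups of 3 libraries: cells overexpressing YAP-HA, which the design text places on a 1.5 kPa gel, cells with a control vector on a 1.5 kPa gel (soft gel), and cells with a control vector on plastic. The mouse bulk samples came from eyes of old C57BL/6J mice given TRULI, an inhibitor of the LATS kinases (2 libraries), or not given it (2 control libraries), with neither dose nor exact age in the labels. Their titles name the sample RPE, and they are called TRULI eyes and control eyes below. The single-cell samples came from C57BL/6J eye cups with the retina removed, with 1 library at 24 months (old) and 1 at 3 months (young). Both of these carry the condition label of an old sample, so the age label set their groups.

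CCN proteins are built from the same modules in different numbers, sit in the extracellular matrix rather than forming its scaffold, and act by binding integrins, LRP receptors, heparan sulphate proteoglycans and growth factors. CCN1 (CYR61) and CCN2 (CTGF) are the best-known target genes of YAP and the TEAD factors it works through, and CCN2 is also induced by TGF-beta and by the serum response factor (SRF) in fibrosis. CCN3 (NOV) is often described as opposing CCN2. CCN4 (WISP1) and CCN5 (WISP2) were named as Wnt-induced genes, and CCN5 lacks the C-terminal module of the others. CCN6, the remaining family member, was looked at for its level only.

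In GRCh38.p14, RefSeq places CCN1 on chromosome 1 at 85580761 to 85583950. CCN2 lies on chromosome 6 at 131948176 to 131951372, on the minus strand. CCN5 lies on chromosome 20 at 44714861 to 44727811. Of the 6 family genes, 2 were matched in the RefSeq promoter table, CCN2 and CCN6. The CCN2 promoter is shown because its levels follow the substrate and YAP-HA below and because GGAATG, the core of the element that TEAD factors bind, occurs in it more than once. The stretch is the 250 bases before the start, chr6:131951373-131951622 on the minus strand in GRCh38.p14, written 5′ to 3′ with GGAATG in capitals.
CCN2 promoter: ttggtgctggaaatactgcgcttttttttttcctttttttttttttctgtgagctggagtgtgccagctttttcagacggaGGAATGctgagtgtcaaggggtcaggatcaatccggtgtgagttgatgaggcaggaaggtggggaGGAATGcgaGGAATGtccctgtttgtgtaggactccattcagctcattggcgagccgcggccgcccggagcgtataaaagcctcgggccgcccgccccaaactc
GGAATG was found 3 times on the strand of the gene, with its first base 169, 104 and 95 bases before the start. Among 35116 promoters of the same length searched on both strands, 11.889% held at least 1 match, 0.94% at least 2 and 0.083%, or 29 promoters, at least 3. The CArG box of SRF, present in 1.159% of these promoters, and CAGACA, a SMAD element present in 13.606%, were not found in the CCN2 window. Only the exact letters CAGACA were searched. The window does hold cagac, the same letters without the last, shortly before the first GGAATG. Other forms of a SMAD element were not searched, so their absence is not shown. CCN6 held 1 GGAATG, 128 bases before its start. A match of letters describes the window only.

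In ARPE-19 cells CCN1 and CCN2 were among the most abundant transcripts, CCN3 was at a moderate level, and CCN4, CCN5 and CCN6 were at or near 0. Levels are TPM, a share of all transcripts that is scaled for gene length and so can be compared between genes, and the depth behind them is unknown. CCN1 was at the 99.6 percentile of the genes above 0 by its mean over the 9 libraries, CCN2 at the 98.6 percentile and CCN3 at the 80.4 percentile. CCN3 and CCN4 both lie on chromosome 8, at 119416446 to 119424434 and at 133191039 to 133231690 in GRCh38.p14, and CCN4 was listed at 0 in all 9 libraries. CCN5 was listed at 0.04, 0 and 0.04 TPM in the 3 plastic libraries and at 0 in the other 6, and CCN6 did not exceed 0.07 TPM. A gene entered the test with at least 1 TPM in at least 3 libraries, and 3 of the 5 members did so. Nothing in the labels says that the 3 libraries of a group came from separate cultures, so the p-values measure the spread between these libraries, which may be technical. The cells carried little of the RPE programme: the 6 RPE marker genes summed to 11.3 to 13.6 TPM in YAP-HA cells, 6.80 to 7.61 TPM on the soft gel and 17.3 to 18.7 TPM on plastic, with 2 of the 6 at 0 in every library.

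The soft gel against plastic asks what the substrate alone does, and both YAP target genes of the family fell on the gel while CCN3 rose. CCN2, the fibrosis-linked member, had 147, 156 and 151 TPM on the soft gel, against 456, 476 and 471 TPM on plastic. The groups were far apart, with the highest gel library under the lowest plastic library, and the mean on the gel was 0.324 of that on plastic (151 ± 4.17 against 468 ± 10.2 TPM, SD, n = 3 each). The log2 fold change of CCN2 on the log2(TPM + 1) scale was -1.62 (SE 0.0623, 95% interval -1.76 to -1.48, limma adjusted p = 2.08e-07), the 83rd lowest of 14606 genes tested. CCN1 had 842, 833 and 816 TPM on the soft gel, against 1166, 1193 and 1138 TPM on plastic. It too did not overlap between groups, but its fall was the smaller (log2 fold change -0.49, 95% interval -0.59 to -0.39, limma adjusted p = 3.91e-05). CCN3 had 19.9, 20.3 and 20.0 TPM on the soft gel, against 16.0, 14.5 and 15.4 TPM on plastic, and was higher in every gel library (log2 fold change 0.37, 95% interval 0.22 to 0.52, limma adjusted p = 0.00152). So all 3 tested members passed the threshold of an adjusted p under 0.05, 1 higher and 2 lower. The background is broad, since 50.5% of all genes tested passed it, 22.6% higher and 27.9% lower, and the groups did not overlap in 26.6% (higher) and 31.2% (lower). Against that share, 3 calls of 3 are not a result about the family, while the size of the CCN2 change stands far from the all-gene median of -0.04.

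YAP-HA against the soft gel asks what added YAP does on the soft substrate. The targeted transcript was high where the labels say so: YAP1 averaged 2367 ± 139 TPM in YAP-HA cells and 66.0 ± 10.8 TPM on the soft gel (SD, n = 3 each). CCN1, named for its cysteine-rich, angiogenesis-linked product, had 941, 993 and 953 TPM in YAP-HA cells, against 842, 833 and 816 TPM on the soft gel. The YAP-HA libraries were all above the gel libraries, by a log2 fold change of 0.21 (95% interval 0.11 to 0.31, limma adjusted p = 0.00364). CCN2 had 173, 197 and 171 TPM in YAP-HA cells, against 147, 156 and 151 TPM on the soft gel, again without overlap. Its log2 fold change was 0.25 (95% interval 0.11 to 0.39, limma adjusted p = 0.00811), which ranked 4255th from the top among the genes tested. CCN3 averaged 20.3 ± 0.680 TPM in YAP-HA cells and 20.1 ± 0.214 TPM on the soft gel. Its groups overlapped and the difference was not called (log2 fold change 0.01, 95% interval -0.14 to 0.16, limma adjusted p = 0.878). Thus 2 of 3 members rose, where 48.4% of all genes tested were called, 24.5% of all genes were called higher, and 28.3% lay wholly higher without overlap.

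Set against plastic, YAP-HA cells remained low for both YAP target genes. CCN2 averaged 180 ± 14.6 TPM in YAP-HA cells and 468 ± 10.2 TPM on plastic, a log2 fold change of -1.37 (limma adjusted p = 2.12e-07) and the 186th lowest of all genes tested. CCN1 averaged 963 ± 27.3 TPM in YAP-HA cells and 1166 ± 27.5 TPM on plastic (log2 fold change -0.28, limma adjusted p = 0.00130). CCN3 was higher in YAP-HA cells than on plastic, at 20.3 ± 0.680 against 15.3 ± 0.791 TPM (log2 fold change 0.38, limma adjusted p = 0.00182). All 3 members were called here, among 34.4% of all genes (14.2% higher, 20.2% lower), and none overlapped, where 21.4% of genes lay wholly higher and 28.4% wholly lower. As a description of the group means on the log2 scale, YAP-HA cells stood 43.5% of the way from the soft gel to plastic for CCN1 and 15.3% for CCN2. The ratio of CCN1 to CCN2 TPM was 5.43, 5.04 and 5.59 in YAP-HA cells and 5.71, 5.35 and 5.40 on the soft gel, against 2.55, 2.51 and 2.42 on plastic, so it separated both sets of gel cells from plastic. The 3 comparisons share libraries, and in this one substrate and transgene differ together.

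**Figure D1:**
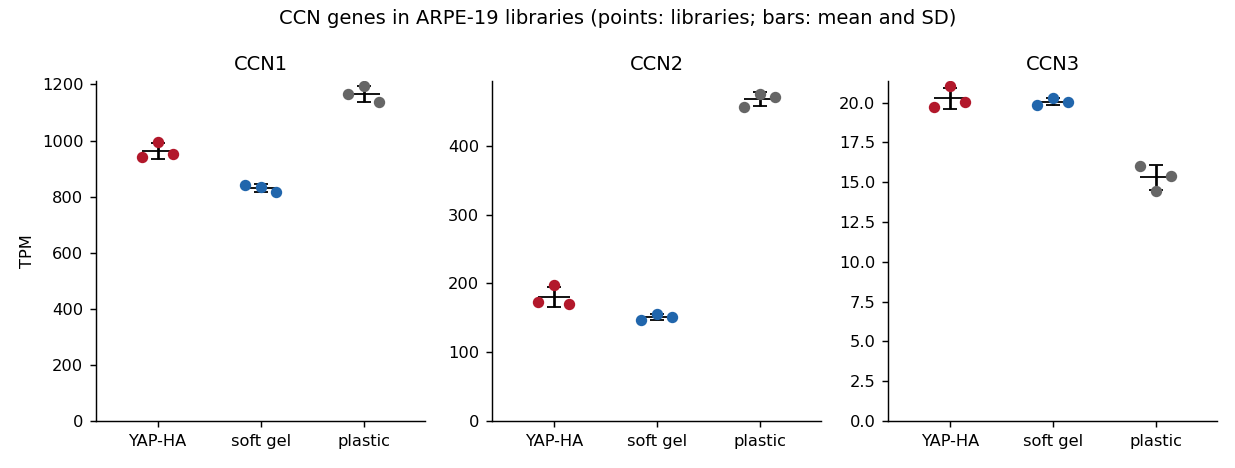
TPM of CCN1, CCN2 and CCN3 in each ARPE-19 library (points), with the mean and SD of the 3 libraries, for YAP-HA, soft gel and plastic. CCN2 lay between 147 and 197 TPM in all 6 gel libraries and between 456 and 476 TPM on plastic, while CCN3 was lowest on plastic.

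The genes around the family moved as follows on the soft gel against plastic. Of 20 tested YAP/TEAD targets other than CCN genes, 2 rose, 15 fell and 3 were not called, with a median log2 fold change of -0.84. The largest falls among these were CRIM1 (-1.67), a membrane protein that binds BMPs, the growth factor TGFB2 (-1.56), ASAP1 (-1.26) and RBMS3 (-1.14). Hippo effectors and kinases fell too, 12 of 14 with 0 rising (median -0.53), led by TEAD1 (-1.43), the upstream regulator NF2 (-1.17) and the kinases LATS1 (-0.99) and LATS2 (-0.98). Of 12 SRF and contractile genes 9 fell and 1 rose (median -0.54), among them the actin-binding TAGLN (-1.69) and CNN1 (-1.36), the co-activator MRTFB (-1.32) and the myosin light chain MYL9 (-1.03). Of 12 TGF-beta pathway genes 7 fell and 2 rose (median -0.42), including the receptor TGFBR3 (-1.02) and the signal carriers SMAD3 (-1.04) and SMAD4 (-0.88).

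Transcripts of the proteins that CCN products bind changed less on the soft gel: of 11 tested receptors and binding partners 5 fell and 2 rose (median -0.24). The named falls were LRP6 (-1.12), a Wnt co-receptor, the integrin chains ITGAV (-0.96) and ITGB3 (-0.62), and LRP1 (-0.42), an endocytic receptor. Matrix genes fell in 6 of 7 cases with 0 rising (median -1.02), led by THBS1 (-1.59), COL1A1 (-1.42), ELN (-1.12) and the cross-linking enzyme LOX (-1.02). Immediate early genes went the other way, 6 of 11 higher and 1 lower (median 0.35), among them HSPA1A (0.82) and IER2 (0.79). Of 6 Wnt feedback targets 1 rose (DKK1, 0.30) and 1 fell (LEF1, -0.35).

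With YAP-HA against the soft gel, 12 of the 20 YAP/TEAD targets rose, 3 fell and 5 were not called (median 0.63). The largest were CRIM1 (1.56), AMOTL2 (1.21), a scaffold that binds YAP, the receptor kinase AXL (1.19) and tissue factor F3 (1.11), all larger on the log2 scale than CCN1 or CCN2. Among Hippo genes 11 of 14 rose and 1 fell (median 0.51), with YAP1 itself at 5.15 and TEAD1 at 1.39. Receptors and binding partners mostly fell, 8 of 11 against 3 that rose (median -0.53), led by fibronectin FN1 (-2.11), ITGA5 (-2.06), its main integrin partner, and ITGB3 (-1.31). TGF-beta pathway genes were split, with 5 of 12 higher and 6 lower, TGFBR3 at 1.59 and TGFBI at -2.15. Contractile genes had 2 of 12 higher and 7 lower (CNN1 1.05, TPM1 -1.06), and immediate early genes 1 of 11 higher and 6 lower, led by JUNB (-2.84). Of 7 matrix genes 1 rose (ELN, 1.99) and 3 fell, COL1A1 the most (-2.57), and of 6 Wnt feedback targets 2 rose and 1 fell.

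Against plastic, YAP-HA cells had 4 of 20 YAP/TEAD targets higher and 7 lower (median -0.11). Hippo genes had 3 of 14 higher and 4 lower (median -0.06). The receptors and binding partners were 1 of 11 higher and 9 lower (median -0.88), and matrix genes 1 of 7 higher and 6 lower (median -1.46). Of 12 TGF-beta pathway genes 1 was higher and 9 lower (median -0.71), of 12 contractile genes 0 and 10 (median -0.54), of 11 immediate early genes 3 and 3 (median -0.05) and of 6 Wnt feedback targets 2 and 1 (median 0.29).

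The genes whose pattern was most like a member over the 9 libraries, by Pearson r on log2(TPM + 1), are given as a description, since the libraries share 3 conditions and many genes follow them. For CCN1 they were COL8A2 (r = 0.9926), LINC01111, OR2W3, F2R and CDR2. F2R, the thrombin receptor, averaged 99.8 TPM in YAP-HA cells, 69.3 TPM on the soft gel and 156 TPM on plastic. For CCN2 they were CA9 (r = 0.9907), IGFBP5, PXDC1, PRSS12 and ACKR3. IGFBP5, an insulin-like growth factor binding protein, averaged 10.1 TPM in YAP-HA cells, 5.25 TPM on the soft gel and 70.5 TPM on plastic. For CCN3 they were MRM3 (r = 0.9901), ILF2, ATP5PB, DCTPP1 and RRP1.

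TRULI against control in old mouse eyes asks whether blocking the LATS kinases in the animal moves YAP target genes. All 5 members were higher in both TRULI libraries than in either control library, but none passed the test. Ccn2 was the most abundant member, with 868 and 1286 TPM in TRULI eyes, against 356 and 564 TPM in control eyes. Its log2 fold change was 1.24 (SE 0.278, 95% interval 0.54 to 1.93, limma adjusted p = 0.252). Ccn1 had 30.4 and 46.6 TPM in TRULI eyes, against 15.8 and 13.3 TPM in control eyes (log2 fold change 1.32, 95% interval 0.69 to 1.95, limma adjusted p = 0.224). In each of these the lower TRULI library was well above the higher control library.

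The members that ARPE-19 cells lacked or held at a low level were measurable in these eyes. Ccn3 had 9.71 and 22.4 TPM in TRULI eyes, against 3.54 and 2.28 TPM in control eyes (log2 fold change 2.04, 95% interval 0.94 to 3.13, limma adjusted p = 0.240). Ccn5 had 8.63 and 27.97 TPM in TRULI eyes, against 2.51 and 3.26 TPM in control eyes (log2 fold change 2.11, 95% interval 0.76 to 3.47, limma adjusted p = 0.282). For both, the second TRULI library was far above the first, so the size of the difference leans on it. Ccn4 had 4.02 and 4.86 TPM in TRULI eyes, against 2.59 and 1.90 TPM in control eyes (log2 fold change 0.75, 95% interval -0.02 to 1.52, limma adjusted p = 0.428). Ccn6 stayed at or under 0.30 TPM.

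Of the 5 members, 0 were called by limma and 4 had an unadjusted p under 0.05. Among all 15132 genes tested, 8 or 0.0529% were called (0.0198% higher and 0.033% lower) and 1810 had an unadjusted p under 0.05. Groups without overlap were common, at 25.2% of genes for TRULI above control and 18.1% for TRULI below it, so the clear separation of 5 of 5 members has a wide background. By size of log2 fold change Ccn5 ranked 38th and Ccn3 45th from the top, Ccn1 183rd, Ccn2 223rd and Ccn4 789th, while the median over all genes was 0.04. With 2 libraries a group the test had little reach: in simulated libraries of this comparison it recovered 2% of genes changed by a log2 of 1 and 37% of those changed by a log2 of 2.

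**Figure D2:**
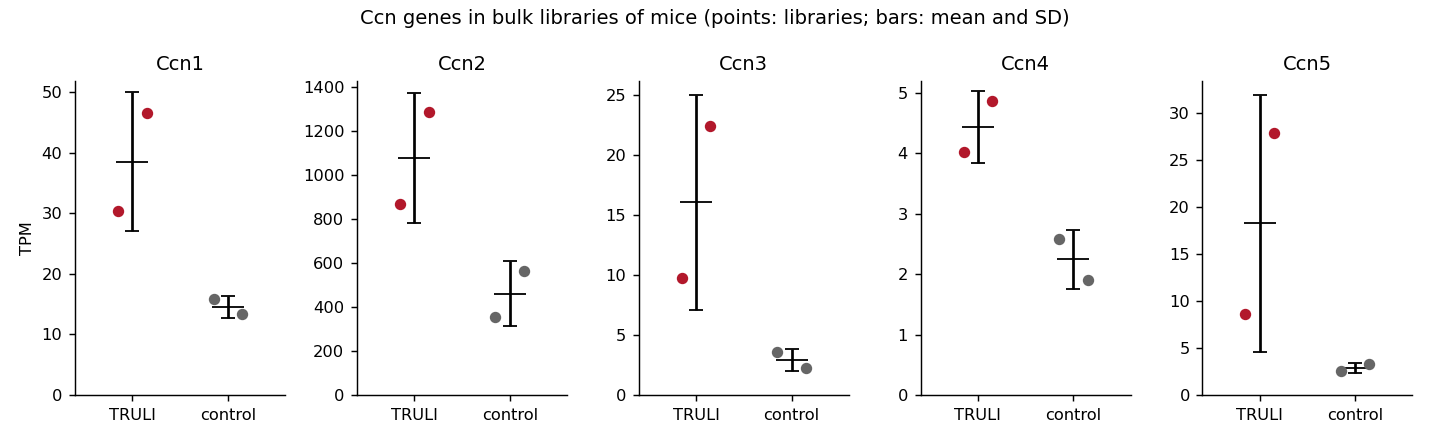
TPM of Ccn1 to Ccn5 in each mouse eye library (points) with the group mean, TRULI left of control, each gene on its own axis from 0. Every TRULI library lay above both control libraries for each member, and the spread between the 2 TRULI libraries was wide for Ccn3 (9.71 and 22.4 TPM) and Ccn5 (8.63 and 27.97 TPM).

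These libraries are titled RPE but hold transcripts of several cell types, and some marker sums moved with the members. In bulk RNA a change in the number of cells of a type and a change in RNA per cell cannot be told apart. The 8 mural cell markers summed to 520 to 802 TPM in TRULI eyes, against 299 to 354 TPM in control eyes, and Ccn3 was found mostly in mural cells in the single-cell libraries below. The 4 fibroblast markers summed to 1916 to 2508 TPM in TRULI eyes, against 1893 to 2220 TPM in control eyes. Their median log2 fold change was 0.55, against 0.04 over all genes, with none called. The overlapping sums thus do not show that each marker was level. Ccn2 TPM over this marker sum was 0.453 and 0.513 in TRULI eyes, against 0.188 and 0.254 in control eyes. This is a ratio to the sum and not a level per fibroblast. Macrophage markers summed to 661 to 850 TPM in TRULI eyes, against 1400 to 1421 TPM in control eyes, and RPE markers to 23039 to 23832 TPM, against 19607 to 19813 TPM. Melanocyte markers summed to 4485 to 4865 TPM in TRULI eyes, against 3254 to 3507 TPM in control eyes, photoreceptor markers to 372 to 671 TPM, against 624 to 1248 TPM, and endothelial markers to 375 to 447 TPM, against 447 to 463 TPM. Comp and Fmod are matrix genes used below to set apart a subset of the fibroblasts, and were picked after their values were seen. They had 57.3 and 143 TPM and 267 and 770 TPM in TRULI eyes, against 35.4 and 61.6 TPM and 111 and 180 TPM in control eyes. Alkal2 and Coch, which mark other fibroblasts, overlapped between the groups, with 7.58 and 3.76 TPM and 13.2 and 13.7 TPM in TRULI eyes, against 3.69 and 8.72 TPM and 9.88 and 15.4 TPM in control eyes. The part of these cell types in the Ccn differences was not tested beyond these values.

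No gene of the 8 lists was called in this comparison. YAP/TEAD targets other than Ccn genes had a median log2 fold change of 0.06 over 18 tested genes, with Ccdc80 at 251 TPM in TRULI eyes and 109 TPM in control eyes and Crim1 at 196 and 195 TPM in the same order. Hippo genes had a median of 0.10, receptors and binding partners 0.01, Wnt feedback targets 0.00 and immediate early genes 0.11. Contractile genes had a median of 0.82, with the tropomyosin Tpm1 at 616 TPM in TRULI eyes and 300 TPM in control eyes and smooth muscle actin Acta2 at 169 and 89.2 TPM. Matrix genes had a median of 1.07, with Sparc at 1435 TPM in TRULI eyes and 887 TPM in control eyes and Thbs1 at 652 and 341 TPM. The TGF-beta pathway had a median of 0.28, with Tgfb3 at 142 TPM in TRULI eyes and 62.1 TPM in control eyes.

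The single-cell libraries show which cells of the eye cup hold the family. After removal of cells with fewer than 200 genes, over 10% mitochondrial UMIs or any haemoglobin UMI, 15198 of 17835 old barcodes and 15667 of 16463 young barcodes were kept, with a median of 3699 and 4586 UMIs per cell. The 2 libraries shared 381 barcodes. Cells in which 6 RPE markers made up at least 4% of UMIs were called RPE cells (5419 old, 1886 young), and cells in which 4 collagen and proteoglycan markers made up at least 0.3% were called fibroblasts (6045 old, 9341 young). Levels are CPM, the UMIs of a gene scaled to the total UMIs of the class, with exact 95% Poisson intervals. With 1 library per age there is no test, and intervals cover counting error only. RPE marker transcripts also lay in fibroblasts, at 7736 CPM in old and 3870 CPM in young, against 82640 and 85507 CPM in RPE cells. Their level in fibroblasts was thus unequal between the libraries, and whether it came from free RNA or doublets was not tested.

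Ccn2, Ccn4 and Ccn5 lay mostly in the same class, Ccn3 mostly in another, and Ccn1 in more than a single class. Fibroblasts held 88.2% of all Ccn2 UMIs in the old library and 92.7% in the young one, 87.6% and 93.2% of Ccn4, and 87.4% and 97.0% of Ccn5. Mural cells, the pericytes and smooth muscle around vessels, held 71.1% of Ccn3 UMIs in the old library and 85.7% in the young one. Ccn1 was spread more widely, with 44.5% of its UMIs in RPE cells and 46.8% in fibroblasts in the old library, and 10.9% and 74.6% in the young one. These shares move with the number of cells recovered in each class.

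**Figure D3:**
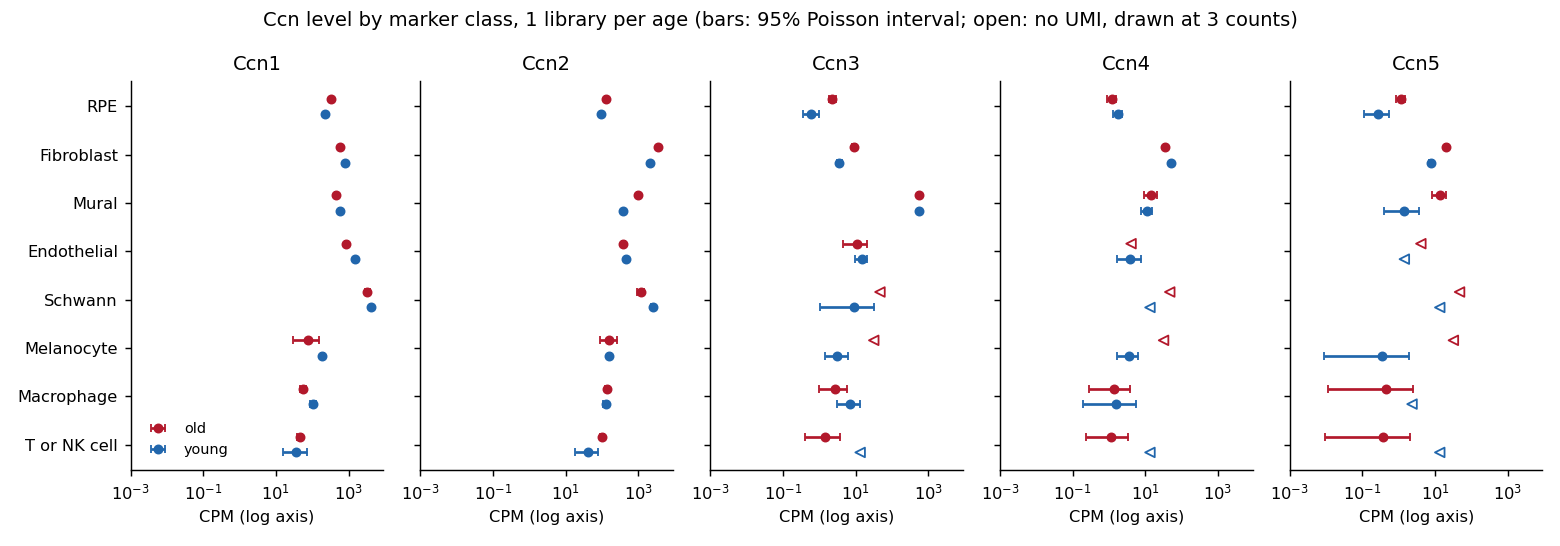
CPM of Ccn1 to Ccn5 in 8 cell classes, old and young library, on a log axis, with 95% Poisson intervals that cover counting error only; open triangles mark classes with no UMI, drawn at the level of 3 counts. Ccn3 peaks in mural cells (554 CPM old, 545 CPM young), while Ccn2 is at 3471 CPM in old and 2057 CPM in young fibroblasts and at 1161 and 2468 CPM in Schwann cells.

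In RPE cells Ccn1 stood above its level in T and NK cells. It reached 336 CPM (331 to 342) in old RPE cells and 226 CPM (220 to 232) in young RPE cells, a log2 ratio of 0.57 (0.53 to 0.62). A Ccn1 UMI was found in 46.2% of old and 51.7% of young RPE cells, whose median depths were 3887 and 10783 UMIs. With every cell thinned to 1000 UMIs the shares were 20.2% in old and 16.3% in young RPE cells, so their order turned with depth. T and NK cells, which should lack the gene, had a UMI in 10.5% of old and 11.7% of young cells (3.38% and 3.33% when thinned) at median depths of 2857.5 and 3509.5 UMIs. By CPM, T and NK cells had 44.7 in the old and 35.7 in the young library. Ccn1 in RPE cells was lower than in fibroblasts, by a log2 ratio of -0.83 in the old and -1.84 in the young library.

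Ccn1 in RPE cells was also seen where the cells were purest. In cells with RPE markers at 12% or more of UMIs, Ccn1 was at 306 CPM in old and 184 CPM in young cells, while the 4 fibroblast markers had dropped to 99.5 and 46.7 CPM. At 4 to 5%, just inside the limit, Ccn1 was at 410 CPM in old and 346 CPM in young cells, and fibroblast markers at 2145 and 3085 CPM. There were 976 old and 396 young cells just inside, and 870 old and 678 young cells at 3 to 4%, just outside. With an 8% limit Ccn1 was at 313 CPM in old and 183 CPM in young RPE cells. Without the 716 old and 327 young RPE cells that also met another class's limit, it was at 333 and 212 CPM. Melanocyte markers summed to 443 CPM in old and 1179 CPM in young RPE cells, and macrophage markers to 209 and 147 CPM. Their part in the Ccn1 ratio was not tested.

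Ccn2 in RPE cells followed the fibroblast transcripts instead. Its level was 127 CPM in old and 91.8 CPM in young RPE cells, a log2 ratio of 0.46 (0.39 to 0.53), or 0.87 without the cells that met another class's limit. It dropped across the RPE marker bins with the fibroblast markers, at 499 CPM in old and 467 CPM in young cells at 4 to 5%, 171 and 136 CPM at 5 to 8%, 47.8 and 35.7 CPM at 8 to 12%, and 25.8 and 9.66 CPM at 12% or more. Per 100 fibroblast marker UMIs, RPE cells had 23.2 Ccn2 UMIs (22.5 to 23.9) in the old and 14.5 (13.9 to 15.1) in the young library. Fibroblasts had 26.6 and 14.2, macrophages 24.2 and 12.9, and T and NK cells 36.3 and 16.1. Other classes stood apart, among them endothelial cells with 93.5 and 67.0 and mural cells with 61.8 and 27.1. The RPE cells thus lay near the ratio of fibroblasts and macrophages. This ratio was chosen after the values were seen, and the source of Ccn2 in RPE cells was not tested. Ccn4, at 1.21 CPM in old and 1.76 CPM in young RPE cells, also lay near the fibroblast ratio. It had 0.221 and 0.278 UMIs per 100 in RPE cells and 0.268 and 0.344 in fibroblasts. The counting interval of its log2 ratio (-0.55, -1.15 to 0.05) holds 0, and the ratio was 0.33 with an 8% limit, so no order between the ages is read from it. For Ccn1 the 2 classes lay apart, as RPE cells had 61.7 and 35.6 Ccn1 UMIs per 100 fibroblast marker UMIs and fibroblasts 4.58 and 5.58.

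**Figure D4:**
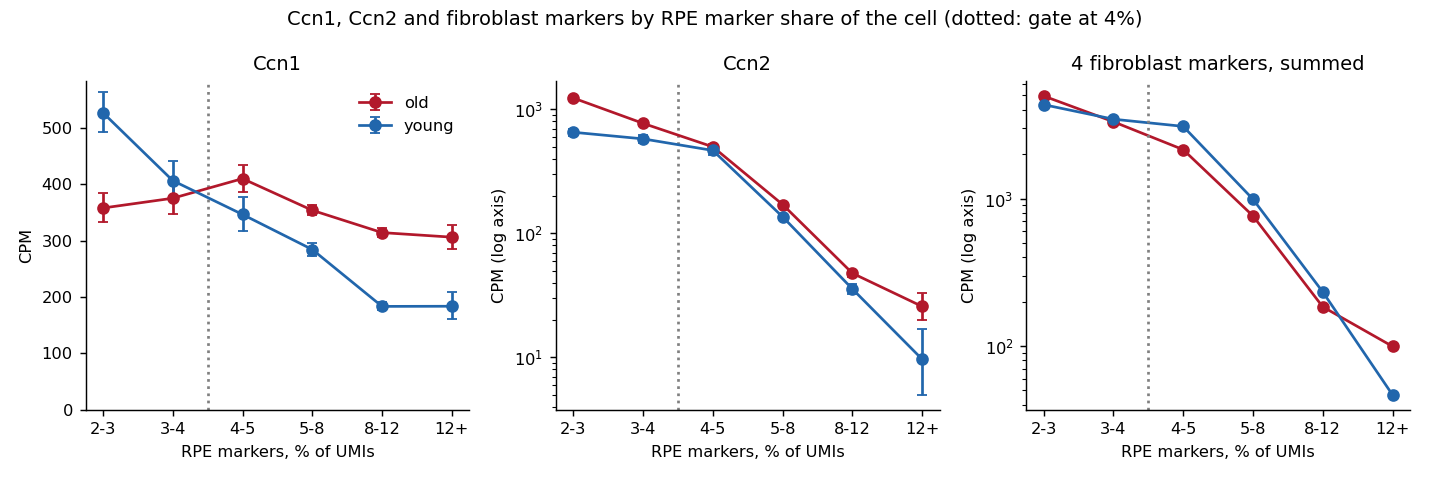
CPM of Ccn1 (linear axis), Ccn2 and the 4 summed fibroblast markers (log axes) in cells binned by the share of RPE markers among their UMIs, old and young, with 95% Poisson intervals; the dotted line marks the 4% limit. Ccn1 stays at 306 CPM in old and 184 CPM in young cells at 12% or more, while Ccn2 drops to 25.8 and 9.66 CPM.

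**Figure D5:**
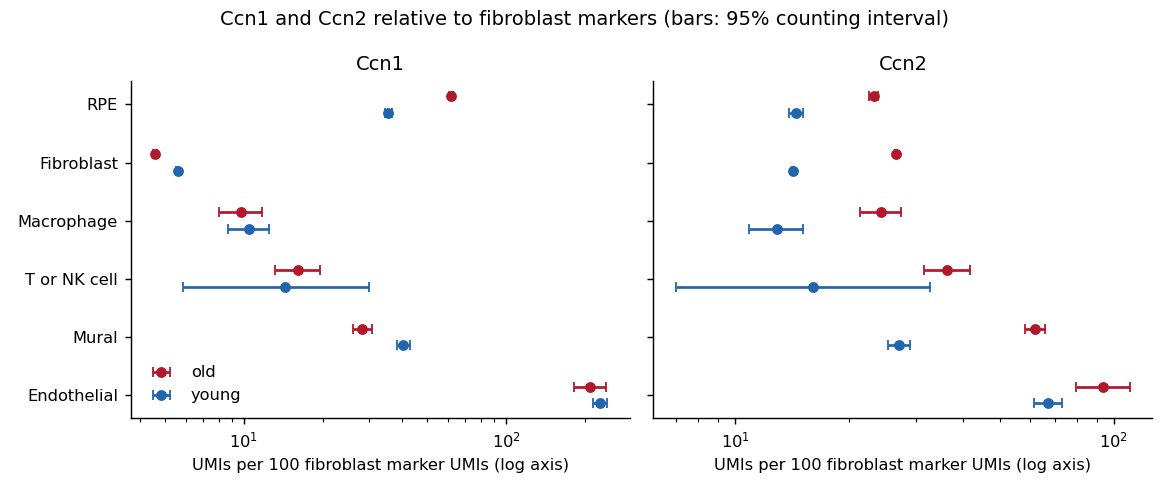
Ccn1 and Ccn2 UMIs per 100 fibroblast marker UMIs in 6 cell classes, old and young, on a log axis with 95% intervals that cover counting error only. For Ccn2 the RPE, fibroblast and macrophage points lie at 23.2, 26.6 and 24.2 in the old library, and for Ccn1 the RPE point (61.7) stands above the fibroblast point (4.58).

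Ccn3, with 102 UMIs in old and 16 in young RPE cells, and Ccn5, with 49 and 7 UMIs, were also rare. Both were at least 2-fold higher in old RPE cells by CPM (2.32 against 0.613 and 1.11 against 0.268), with a Ccn3 log2 ratio of 1.92, or 1.11 in thinned cells. Most of these UMIs lay in cells that also met another class's limit. Without those cells Ccn3 had 36 old and 7 young UMIs (log2 ratio 1.59, 0.40 to 3.00). Ccn5 then had 12 old and 2 young UMIs, and the interval of its log2 ratio held 0 (1.81, -0.36 to 5.01). Of the 14759 genes measured in RPE cells 4.8% were at least 2-fold higher and 1.75% at least 2-fold lower in the old library, and the median log2 ratio was -0.04. Old RPE cells with a Ccn3 UMI were 1.18% of the class and those with a Ccn5 UMI 0.627%, against 0.636% and 0.371% of young RPE cells. T and NK cells of the old library had 4 UMIs of Ccn3 (1.48 CPM) and 1 of Ccn5 (0.369 CPM). Per 100 fibroblast marker UMIs, Ccn3 was at 0.426 in old and 0.0967 in young RPE cells and at 0.0716 and 0.0246 in fibroblasts, and Ccn5 at 0.204 and 0.0423 in RPE cells and 0.155 and 0.0531 in fibroblasts. Whether these few UMIs came from RPE cells was not tested.

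Fibroblasts, where most CCN transcripts lay, differed between the ages member by member. Ccn2 was at 3471 CPM (3449 to 3494) in old and 2057 CPM (2044 to 2069) in young fibroblasts, a log2 ratio of 0.76, and was found in 72.2% and 65.1% of cells thinned to 1000 UMIs. Ccn1 was at 598 CPM in old and 806 CPM in young fibroblasts, a log2 ratio of -0.43, or -0.28 with a fibroblast limit of 1%. Ccn4 was also lower in old fibroblasts, at 35.0 against 49.6 CPM (log2 ratio -0.50). Ccn3, at 9.34 against 3.56 CPM, and Ccn5, at 20.2 against 7.67 CPM, were higher in old fibroblasts, each with a log2 ratio of 1.39. For Ccn3 the ratio was 0.50 in cells thinned to 1000 UMIs and 0.82 with the fibroblast limit of 0.3% used alone. Of 15415 genes in fibroblasts 5.54% were at least 2-fold higher and 3.98% at least 2-fold lower in the old library, with a median log2 ratio of -0.07. Summed over the members, CCN transcripts made up 4134 CPM in old and 2923 CPM in young fibroblasts, and 467 and 320 CPM in RPE cells. The 2 libraries also differed in what else the cells held: all 11 immediate early genes, which respond to dissociation, were lower in old fibroblasts (33302 against 46381 CPM in sum). In RPE cells the same 11 genes summed to 3639 CPM in old and 3619 CPM in young, with 5 higher and 4 lower. CCN1 is itself induced as an immediate early gene, and the part of dissociation in its ratios was not tested. The same genes were mostly lower in the old library in endothelial cells (9 of 11 lower and 1 higher, 29761 against 37456 CPM in sum) and in mural cells (9 of 11 lower and 1 higher, 28013 against 32605 CPM).

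Ccn5 had its highest CPM in a subset of the fibroblasts, chosen after the values were seen by a UMI of Comp or Fmod and none of Alkal2 or Coch (521 old and 1156 young cells). There Ccn5 was at 70.1 CPM in old and 35.2 CPM in young cells, against 3.48 and 1.17 CPM in fibroblasts with Alkal2 or Coch and neither of the others (2428 old and 4190 young cells). Ccn1 there was at 1233 CPM in old and 1475 CPM in young cells, against 431 and 629 CPM. Ccn2 was at 4391 and 2625 CPM, against 3432 and 1943 CPM. In these subsets Ccn2 and Ccn5 were higher and Ccn1 lower in the old library. Fibroblasts with neither marker pair (2915 old and 3632 young cells) held more of the old Ccn5 UMIs, 269 against 196 in Comp or Fmod cells, at 24.7 CPM in old and 4.32 CPM in young cells. Ccn1 went the other way in the 181 old and 363 young cells with both pairs, at 1317 CPM in old and 966 CPM in young cells. Ccn3 in Alkal2 or Coch cells was at 2.14 CPM in old and 2.46 CPM in young cells, unlike its ratio in fibroblasts as a whole. Cells with such a UMI are also the deeper ones, with a median of 5231 UMIs in old and 6688 in young Comp or Fmod cells.

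Ccn3 was at 554 CPM (520 to 590) in old and 545 CPM (518 to 572) in young mural cells, with a log2 ratio of 0.03 (-0.09 to 0.14) and a UMI in 60.9% and 61.2% of cells. Ccn2 in mural cells was at 982 CPM in old and 389 CPM in young, a log2 ratio of 1.33, or 61.8 and 27.1 UMIs per 100 fibroblast marker UMIs. Ccn1 was lower in old mural cells, at 450 against 582 CPM (log2 ratio -0.37). Marker levels within the class also differed, though not all in 1 direction. Of the pericyte genes, Rgs5 (log2 ratio -0.85), Kcnj8 (-0.99), Abcc9 (-1.23) and Notch3 (-0.71) were lower in old mural cells. Higd1b was not (0.32, -0.02 to 0.66). Of the smooth muscle genes, Tagln (0.69), Cnn1 (0.94) and Actg2 (1.19) were higher. Acta2 (0.20) and Myl9 (0.06) differed little, and Myh11 was lower (-0.15). The part of these differences in the Ccn ratios of mural cells was not tested. Endothelial cells had 867 CPM of Ccn1 in the old and 1511 CPM in the young library (log2 ratio -0.80), and 388 and 444 CPM of Ccn2. No Ccn5 UMI was seen in the 243 old or 592 young endothelial cells. Schwann cells, the glia of peripheral nerve, had the highest Ccn1 of the 8 plotted classes, at 3309 CPM in the 27 old and 4114 CPM in the 85 young cells, with Ccn2 at 1161 and 2468 CPM. Macrophages had 55.9 CPM of Ccn1 in the old and 104 CPM in the young library (log2 ratio -0.90). The fibroblast markers in them also differed, at 575 CPM in old and 993 CPM in young macrophages. Per 100 fibroblast marker UMIs Ccn1 was at 9.72 (8.03 to 11.7) in old and 10.5 (8.71 to 12.5) in young macrophages. The source of Ccn1 in macrophages was not tested. At least 2-fold differences were found in 2.99% (higher) and 4.68% (lower) of genes in endothelial cells, 2.93% and 3.9% in mural cells and 2.84% and 5.27% in macrophages. Against these shares stand Ccn2 in mural cells, at least 2-fold higher in old, and Ccn5 there, with 23 old and 4 young UMIs.

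Around the family in RPE cells, Hippo genes were nearly level between the ages: of 13 with at least 20 UMIs, 1 had a counting interval above 0 and 1 below it (median log2 ratio 0.00), and Yap1 was at 47.2 CPM in old and 55.1 CPM in young cells. Of 19 YAP/TEAD targets 4 lay above and 6 below 0 (median 0.04), with the phosphatase Ptpn14 at -0.92 and Igfbp3 at -0.90. Of 13 contractile genes 5 lay above and 0 below (median 0.15), with Cnn1 at 1.44 and Tagln at 1.22, and the 8 mural markers summed to 292 CPM in old and 251 CPM in young RPE cells. Of 12 TGF-beta pathway genes 3 lay above and 1 below (median 0.01), Tgfb1 at 0.90. Receptors and binding partners had 4 of 14 above and 9 below (median -0.16), with Fn1 at 8.87 CPM in old and 0.575 CPM in young cells. Matrix genes had 4 of 12 above and 6 below (median -0.16). The share of all genes with a counting interval off 0 is not given here, so these counts have no background to be read against. The same holds for the counts of immediate early genes above.

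In fibroblasts, receptors and binding partners had 8 of 14 above and 3 below 0 (median 0.20). The largest were the leukocyte integrin chains Itgb2 at 2.21 and Itgam at 1.16, Fn1 at 1.60 and Itga5 at 1.09. The macrophage markers summed to 140 CPM in old and 87.2 CPM in young fibroblasts. YAP/TEAD targets had 8 of 19 above and 6 below (median 0.05), with F3 at 1.60, Gadd45a at 0.97, Nuak2 at 0.92 and Ptpn14 at -0.92. TGF-beta genes had 6 of 12 above and 3 below (median 0.09), Tgfb1 at 0.86. Contractile genes had 3 of 13 above and 6 below (median -0.11). Matrix genes had 5 of 12 above and 7 below (median -0.27), with tenascin Tnc at 2.76 and Postn at 1.22. Hippo genes had 2 of 14 above and 3 below (median -0.03). As in RPE cells, no share over all genes stands beside these counts, and they are a description only.

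Over 16 points, the 8 classes in each library, the genes most like a member by Pearson r on log2(CPM + 1) are again a description. The points share libraries and may share free RNA. Ccn2 was followed by Bgn (r = 0.9617), Mxra8 and Cxcl12, all fibroblast transcripts. Ccn3 was followed by Mustn1 (r = 0.9374), Grip2 and Tbx3os1. Ccn5 was followed by Cdr1 (r = 0.98), Ltbp2 and Has2. Ccn4 was followed by Sp7 (r = 0.977), Gm48662 and Clstn2, and Ccn1 by Slc35g2 (r = 0.9556), Pcdhgb2 and Ro60.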

How the data were processed

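The authors deposited TPM tables for the 9 ARPE-19 and 4 mouse eye libraries, and raw UMI counts for the 2 single-cell libraries. The submitters' processing notes name STAR 2.7.3a and 2.7.10b, RSEM, Cell Ranger 6.0.1 and the builds GRCh38, GRCm39 and mm10. TPM keeps no depth, so none is given for the bulk libraries, while the kept cells held 82897938 UMIs in the old and 89817876 in the young library. All per-sample columns were mapped.

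TPM values were tested as log2(TPM + 1) with limma 3.58.1 in R 4.3.3 (trend on, robust off), all 9 ARPE-19 libraries in 1 fit and the 4 mouse libraries in another. Genes entered with at least 1 TPM in at least 3 of 9 or 2 of 4 libraries, p-values were adjusted by Benjamini-Hochberg over all of them, and an adjusted p under 0.05 was called. The steps were tested on simulated data. UMIs were summed per class in Python 3.11.15 (numpy 2.4.6, scipy 1.17.1, pandas 2.3.3). Cells not passing the RPE limit of 4% went to the class whose marker share was the highest multiple of its own limit (0.3%, melanocytes 1%, photoreceptors 2%, with at least 3 UMIs for classes other than fibroblasts). No doublet caller was run, and a setting without cells that meet another class's limit stands in for it. Sums were given exact Poisson intervals, ratios exact conditional intervals and shares exact binomial (Clopper-Pearson) intervals, all at 95%. Whether a library pooled animals is not given in the sources used here.

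The members, gene lists and classes were chosen with earlier results of these data known. All 5 members are named whatever their values. From a list the text names at most 4 genes with the largest absolute log2 fold change among those called, or, with none called, the 2 with the highest mean; neighbours are the 5 (bulk) or 3 (single-cell) genes with the highest r. Bulk alternatives covered scaling, pseudocount, filter, robust on, each replicate left out, a replicate block and, in ARPE-19 cells, the compared groups fitted alone. Single-cell alternatives covered thinning to 1000 UMIs, other class limits, cells that meet another class's limit, shared barcodes and the haemoglobin filter.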

Additional observations from a re-analysis of the deposited data

Results flagged for a closer look

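Ccn1 differed between the ages in opposite directions by cell class: the log2 ratio of old over young CPM was 0.57 in RPE cells, against -0.43 in fibroblasts, -0.80 in endothelial cells, -0.37 in mural cells and -0.90 in macrophages. Fibroblast marker levels also differed between old and young macrophages, and their part in the macrophage value was not tested. Per 100 fibroblast marker UMIs, Ccn1 was at 9.72 in old and 10.5 in young macrophages. Immediate early genes were lower in sum in old fibroblasts (33302 against 46381 CPM), endothelial cells (29761 against 37456 CPM) and mural cells (28013 against 32605 CPM), and at 3639 against 3619 CPM in RPE cells; their part was not tested. With 1 library per age, the difference between classes was not tested.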

How the results depend on the processing

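The counts of called CCN members, 3 for soft gel against plastic, 2 for YAP-HA against soft gel, 3 for YAP-HA against plastic and 0 for TRULI against control, held under each of 12 alternatives in ARPE-19 cells and 9 in mouse eyes, replicates left out included. Among the bulk values, the direction turned only for CCN3 in YAP-HA cells against the soft gel, which was never called: its log2 fold change was -0.0037 with median-of-ratios scaling and -0.0115 to 0.0328 over the libraries left out in turn (limma adjusted p 0.770 to 0.970 over all alternatives). With a TRULI or control library left out, the lone library is assumed to vary like the others, and the log2 fold change was 0.90 to 1.57 for Ccn2, 1.47 to 2.60 for Ccn3 and 1.32 to 2.91 for Ccn5. Replicate numbers did not pair the libraries (r of deviations -0.125 to 0.094 in ARPE-19 cells, 0.056 in mouse eyes). With a replicate block the called members were again 3, 2, 3 and 0, while all-gene calls were 6905, 6645, 4530 and 0, against 7383, 7066, 5019 and 8 without it. The all-gene count for TRULI was also 0 with no filter on low TPM.

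The log2 ratio of summed Ccn CPM in old over young RPE cells was 0.55, and it was 0.47 in cells thinned to 1000 UMIs, 0.69 without cells that meet another class's limit and 0.73 with an 8% limit. In fibroblasts it was 0.50, and it was 0.48 thinned, 0.46 with the 0.3% limit alone, 0.47 with a 1% limit and 0.54 without cells that meet another class's limit, the last chosen after seeing the data, as was leaving out barcodes found in both libraries. The log2 ratio of Ccn4 in RPE cells turned to 0.33 with an 8% limit, against -0.55 with 4%. The causes of these shifts were not tested. Among the values for single members under the alternatives, 184 were counted as the same, 20 as moved and 2 as reversed. For bulk fold changes, the same means only the same direction and the same call. For single-cell ratios it means a value inside the counting interval of the main setting. All 20 that moved were single-cell ratios, so the 184 do not measure how often a value stayed within its error. One library per age gives no replicate error for any single-cell value, and the depth behind TPM is unknown.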
